A study of Homo sapiens with 8 samples.

Results

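The genes described here are the lysosome pathway genes of KYSE150 cells: those rows of the count table whose pathway terms include exactly Lysosome. The term marked 123 of the 15852 genes listed. SLC11A2 was left out by the rule, and 15 other genes did not reach 1 CPM (a count scaled to the same total in every library) in at least 4 of the 8 libraries. The remaining 107 genes are called lysosome genes below, and all 107 were among the 11841 genes tested across the table. The rule used the level of each gene and no difference between the groups.

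KYSE150 is an established line of human esophageal squamous cell carcinoma, and polyadenylated RNA of untreated cells was sequenced. The 4 control libraries carry the genotype label Control. The other 4 carry the label ShBOLA3-L and are described as a knockdown of the isoform BOLA3-L. One cell line was used, and whether the 4 of a group were grown as separate cultures is not stated, so p-values measure a spread between libraries that may be technical. In bulk RNA, fewer cells of a type and less RNA per cell cannot be told apart.

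The lysosome is the acidic organelle in which cells break down glycosaminoglycans, glycolipids, proteins and nucleic acids that arrive by endocytosis, autophagy or direct sorting. Its hydrolases are made in the endoplasmic reticulum and most are tagged with mannose 6-phosphate in the Golgi. Receptors then carry them in clathrin-coated vesicles towards endosomes, and a V-type ATPase pumps in the protons that the enzymes need. BOLA3, the targeted gene, works in mitochondria, where it helps to hand over iron-sulfur clusters, and is no part of this pathway.

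BOLA3 stood at 19.1 to 21.8 CPM in the controls and at 6.06 to 7.29 CPM with knockdown, or 31.7% of the control mean, with all isoforms counted together. The libraries held 31178036 to 35147860 counts each, at which 3 counts correspond to 0.0851 to 0.0969 CPM. Knockdown replicate 1 stood apart from the other knockdown libraries on the second principal component (20.1 against -10.1 to -4.81), so counts of calls by class and subset are given with and without it. All 11 squamous markers examined were above a mean of 1 CPM, while 0 of the 9 listed leukocyte markers were, and the summed leukocyte level was 0.884 to 1.29 CPM in the controls and 0.617 to 1.05 CPM with knockdown. Of the squamous markers 10 fell and 1 rose, and their summed level went from 5705 to 5757 CPM in controls to 3785 to 4236 CPM with knockdown. Of the fibroblast markers both that were tested fell (summed level 9.94 to 14.8 CPM in controls and 4.53 to 7.26 CPM with knockdown), and 1 endothelial marker, CDH5, rose (summed level 1.0 to 1.91 and 1.96 to 2.56 CPM). The part of these shifts in the lysosome results was not tested.

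After knockdown 35 lysosome genes rose, 8 fell and 64 were not called, at an edgeR adjusted p under 0.05 over all tested genes. Among all tested genes 15% rose and 15.6% fell, together 30.7%, while among lysosome genes 32.7% rose and 7.48% fell, together 40.2%. The share that fell is thus below that of the whole table and the share that rose above it. The median log2 change was 0.05 for the lysosome genes and 0.0014 for all tested genes, and 68 of the 107 values were above 0. Without knockdown replicate 1, 42 lysosome genes rose and 12 fell, beside 21.2% and 21.5% of all tested genes (54 lysosome genes, or 50.5%, beside 42.7%). The number that fell was 4 without control replicate 2 and 5 without control replicate 3. In 30 lysosome genes every knockdown library lay above every control, and in 9 every knockdown library lay below, beside 14.6% and 15.6% of all tested genes (together 39 lysosome genes, against 30.2% of all).

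The changes were mostly small. Over the 43 called genes the absolute log2 change had a median of 0.24, and in 4 of them the change was at least 1.5-fold. These were HGSNAT, an acetyltransferase of heparan sulfate breakdown, LAMP3, a lysosomal membrane glycoprotein, IDUA, the alpha-L-iduronidase, and PSAPL1, which resembles the saposin precursor, and each of them rose. The minimum bears on this: PSAPL1 reached it through its knockdown libraries, while ACP5, with a fitted log2 change of -1.86, fell and stayed below it. Without PSAPL1, 34 of 106 genes rose and 8 fell. None of the 107 fell by more than the 0.29 of NAGPA on the log2 scale. The calls of 33 genes (29 that rose and 4 that fell) held without each single library and under every other alternative run. The genes that fell and kept their calls were GAA, AP1G2, IGF2R and GGA2.

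**Figure D1:**
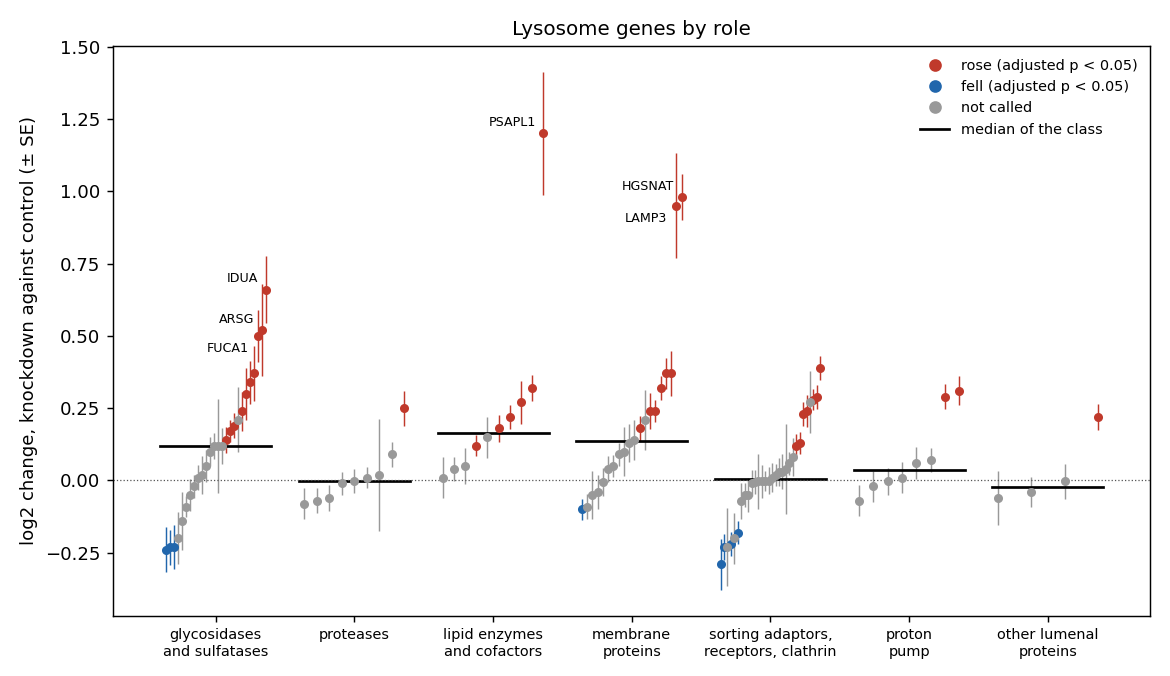
Log2 change after knockdown (vertical axis, with its SE) of each of the 107 lysosome genes, ordered by size within 7 classes by role (horizontal axis), with the class median as a black line. Red points rose and blue points fell at an edgeR adjusted p under 0.05. The proteases lie close to 0 apart from CTSD, and each of the 10 lipid genes lies above 0.

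The levels of these genes were also summed within each library. The summed FPKM (counts scaled to gene length and library total, as deposited) of the 107 genes was 2729, 2729.7, 2749.7 and 2735 in control replicates 1 to 4. It was 2917, 2946, 2914 and 2932 in knockdown replicates 1 to 4. Controls and knockdown did not overlap, and the ratio of their means was 1.07, where that of all listed genes not in this set was 1.01. By class the ratio was highest for the lipid enzymes and cofactors (347 ± 2.63 to 391 ± 6.35, ratio 1.13), followed by other lumenal proteins (1.1), membrane proteins (1.09) and proteases (1.07). It was 1.05 for the sorting genes and for the proton pump and 1.04 for the glycosidases and sulfatases (380 ± 5.09 to 395 ± 2.31; SD, n = 4 per group). In the proton pump the groups overlapped, at 248 to 268 against 262 to 279. A few abundant genes carry these sums: PSAP holds 37.5% of the lipid class and CTSD 30.8% of the proteases.

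**Figure D2:**
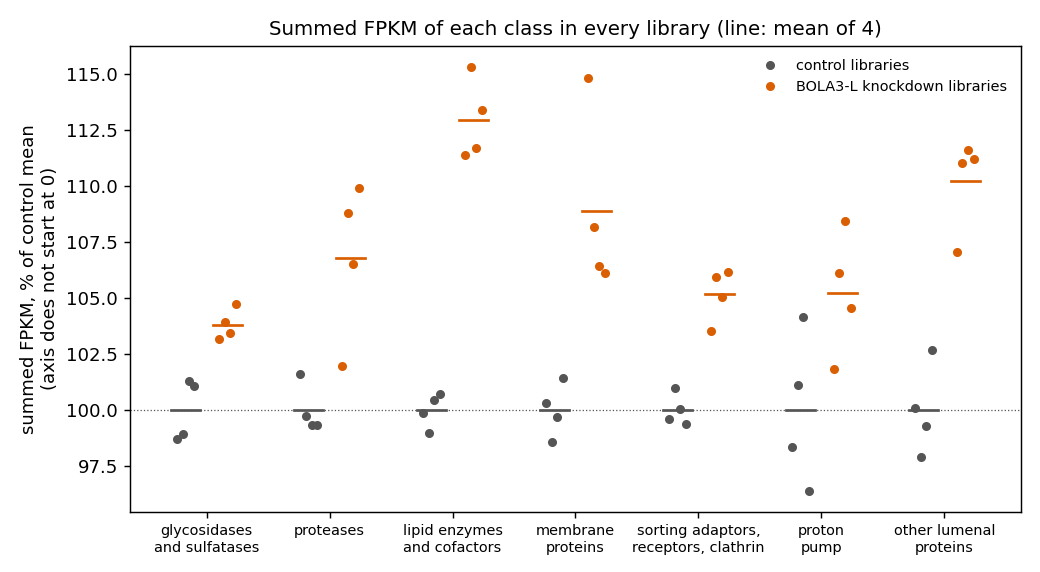
Summed FPKM of each class in every library, as a percentage of the control mean (vertical axis, which does not start at 0), with lines at the mean of 4 libraries. Knockdown libraries lie above controls in 6 of the 7 classes, and in the proton pump the groups overlap.

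Many lysosomal promoters are known for an E-box, CACGTG, often inside a longer palindrome, to which TFEB and its relatives bind. RefSeq promoter windows on GRCh38.p14, from 250 bases before to 50 after a transcript start, were found for 81 of the 107 genes. For 26 of the 81 more than 1 start is listed, and the first listed was read. CACGTG, which reads the same on both strands, stood in 18 of them (22.2%), against 10.3% of 9762 tested genes and 7.43% of all 27305 genes with a window. TCACGTGA, which contains it, stood in 11 (13.6%), against 2.02% of tested genes and 1.04% of all genes with a window.

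The calls were unevenly spread over these windows. CACGTG stood in the windows of 5 of the 7 lysosome genes that fell (71.4%), 11 of the 49 that were not called (22.4%) and 2 of the 25 that rose (8%). Among all tested genes the shares were 11.3%, 10.5% and 7.83%. Seen from the motif, 5 of the 18 genes with CACGTG fell and 2 rose, and of the 63 windows without it 2 fell and 23 rose. The group that fell is small, and 3 of its 5 genes with the motif, NEU1, NAGPA and CD63, lost their calls without 1 library or another. The choice of window matters for CD63, whose motif lies in 1 of its 8 listed windows, that of a start 1032 bases inside the gene. With the outermost listed window of each gene the motif stood in 4 of 7 that fell, 11 of 49 not called and 3 of 25 that rose, and with any listed window in 5, 13 and 3. These shares are a description of letters in a window, and no binding was measured.

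**Figure D3:**
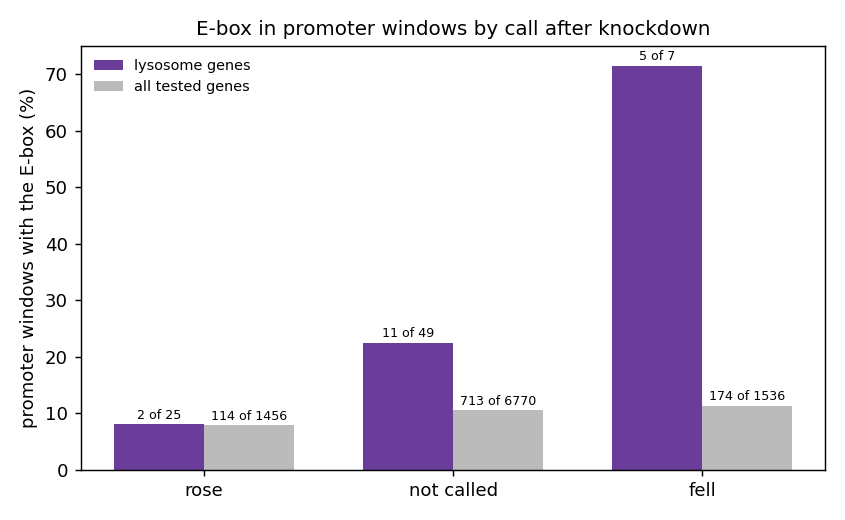
Percentage of promoter windows that hold the E-box (vertical axis, from 0) among genes that rose, were not called or fell after knockdown, for lysosome genes (purple) and all tested genes (grey). Counts stand above the bars: 2 of 25, 11 of 49 and 5 of 7 for the lysosome genes.

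The windows of the 7 called genes with the motif, and of LAMP1 and MCOLN1 as uncalled genes with several copies, are shown because the direction of change differs among genes with the same letters. Each runs 5′ to 3′ on the gene's strand from 20 bases before the first copy to 20 after the last, cut at the start used, from RefSeq on GRCh38.p14. Capitals mark CACGTG. The genes that fell come first, then GALNS and CTSD, which rose, then the genes not called.
GAA (chr17:80101485-80101575, plus strand): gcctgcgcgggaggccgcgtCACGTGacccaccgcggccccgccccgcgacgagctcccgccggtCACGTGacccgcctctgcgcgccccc
IGF2R (chr6:159968930-159969079, plus strand): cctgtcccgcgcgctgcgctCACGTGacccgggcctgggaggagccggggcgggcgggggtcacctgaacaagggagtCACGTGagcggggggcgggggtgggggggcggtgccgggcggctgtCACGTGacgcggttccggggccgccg
NAGPA (chr16:5033936-5033975, minus strand): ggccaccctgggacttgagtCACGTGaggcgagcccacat
NEU1 (chr6:31862922-31862967, minus strand): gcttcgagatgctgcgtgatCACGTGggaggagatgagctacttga
CD63 (chr12:55729164-55729209, minus strand): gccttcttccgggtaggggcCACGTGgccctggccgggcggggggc
GALNS (chr16:88856954-88857141, minus strand): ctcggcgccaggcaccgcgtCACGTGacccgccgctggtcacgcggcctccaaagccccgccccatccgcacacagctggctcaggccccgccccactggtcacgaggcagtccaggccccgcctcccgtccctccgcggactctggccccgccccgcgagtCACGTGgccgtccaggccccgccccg
CTSD (chr11:1763949-1763994, minus strand): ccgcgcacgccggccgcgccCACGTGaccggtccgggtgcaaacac
LAMP1 (chr13:113297027-113297236, plus strand): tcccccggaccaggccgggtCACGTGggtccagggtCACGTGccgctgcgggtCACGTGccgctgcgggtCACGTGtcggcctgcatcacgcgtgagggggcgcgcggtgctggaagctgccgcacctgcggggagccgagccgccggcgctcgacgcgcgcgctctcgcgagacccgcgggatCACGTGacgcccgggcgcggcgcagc
MCOLN1 (chr19:7522563-7522623, plus strand): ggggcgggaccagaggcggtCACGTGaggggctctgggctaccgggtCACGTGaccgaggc

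TCACGTGA is complete at both copies in GAA and MCOLN1, all 3 in IGF2R, the 1 copy in NAGPA and 1 copy in GALNS. In LAMP1 it is complete at 2 of the 6 copies in the whole window, of which 5 lie before the start and are shown. It is not complete in NEU1, CD63 or CTSD. The copies of CACGTG nearest to the start lie 31 bases before it in GAA, 28 in IGF2R, 32 in GALNS and 14 in MCOLN1. LAMP1, a major glycoprotein of the lysosomal membrane, was at 183 ± 7.54 CPM in the controls and 189 ± 3.08 CPM with knockdown (SD, n = 4 per group), with a log2 change of 0.05 that was not called.

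Lysosome genes also differed in the GC content of their transcripts by call. The median was 48.4% for those that rose, 52.7% for those not called and 57.1% for those that fell, against 49.3%, 48.9% and 48.3% of all tested genes. With offsets corrected for GC content, 41 lysosome genes rose and 11 fell, beside 20.5% and 21.2% of all tested genes, and the 43 calls of the uncorrected fit were all kept in the same direction.

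Glycosidases and sulfatases, which strip sugars and sulfate groups from glycans, were the class with the most calls. Of 26 genes 10 rose and 3 fell (50%, beside 30.7% of all tested genes), and the median log2 change was 0.12. Leaving out knockdown replicate 1 gave 12 rises and 4 falls (61.5%, beside 42.7% of all tested genes). There was 1 fall without control replicate 2 or control replicate 3. Rises were more frequent among the sulfatases (5 of 7, with 0 that fell in edgeR, also at an unadjusted p under 0.05) than among the glycosidases (5 of 19, with 3 that fell), and this difference was not tested. The sulfatase counts were the same without knockdown replicate 1, while 7 glycosidases rose and 4 fell.

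The route that degrades heparan sulfate, a sulfated glycosaminoglycan of cell surfaces and matrix, held the largest rises among the degradative enzymes. Its enzymes act in turn from the end of the chain: sulfatases remove sulfate, IDUA and GUSB remove the acid sugars, and HGSNAT and NAGLU together remove the glucosamine. Of the 7 genes of this route described here, grouped after their values were seen, 5 rose and 0 fell in edgeR, with a median log2 change of 0.24. At an unadjusted p under 0.05, and also without knockdown replicate 1, 6 rose and 0 fell. The whole set that the pathway terms call Glycosaminoglycan degradation had 15 lysosome genes, of which 8 rose and 1, the hyaluronidase HYAL2, fell (median 0.17). Together these are 60%, beside 30.7% of all tested genes, and the counts were 9 and 1 without knockdown replicate 1.

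HGSNAT encodes the transmembrane enzyme that acetylates the terminal glucosamine and is counted below among the membrane proteins. It was at 11.4, 11.9, 9.68 and 10.8 CPM in the controls (replicates 1 to 4) and at 23.4, 19.9, 22.5 and 20.6 CPM with knockdown, again in order of replicate. Every knockdown library was well above the highest control, and the level rose 1.97-fold (log2 change 0.98, SE 0.0797, edgeR adjusted p 4.28e-08). HGSNAT (identifier 138050) lies on chromosome 8 from 43140464 to 43202855 on GRCh38.p14.

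IDUA, which removes iduronic acid, was at 4.52, 4.61, 5.49 and 5.08 CPM in the controls and at 6.34, 8.03, 8.31 and 8.38 CPM with knockdown. No knockdown library fell within the control range, and knockdown replicate 1 was the lowest of its group. From edgeR the gene had a log2 change of 0.66 (SE 0.117, adjusted p 3.42e-04), and 0.74 without that library. IDUA (identifier 3425) lies on chromosome 4 from 986997 to 1004564.

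NAGLU, the N-acetylglucosaminidase that follows HGSNAT, was at 20.4 to 22.3 CPM in the controls and at 22.4 to 27.2 CPM with knockdown, with a log2 change of 0.24 (SE 0.0674, edgeR adjusted p 0.0115). The iduronate sulfatase IDS, the highest of these genes by count, rose from 226 ± 3.49 to 253 ± 11.6 CPM (log2 change 0.17), and 20.2% of its sequence is shared with AC244197.3, so its reads cannot be fully assigned. The groups did not overlap in either gene. ARSG, a sulfatase, rose from 2.52 ± 0.386 to 3.61 ± 0.487 CPM (log2 change 0.52, edgeR adjusted p 0.0176) but lost the call without control replicate 1 or 4 or knockdown replicate 2 (adjusted p 0.00654 to 0.0687 over single libraries left out).

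SGSH, the sulfamidase of the same route, was at 31.4 ± 1.91 CPM in the controls and 31.9 ± 2.6 CPM with knockdown, a log2 change of 0.02 with an SE of 0.0653. GUSB, the beta-glucuronidase, was at 71.6 ± 2.1 and 77.8 ± 3.46 CPM (SD, n = 4 per group), a log2 change of 0.12 that just missed the threshold (edgeR adjusted p 0.0524) and passed it without knockdown replicate 1. These 2 genes were the only ones of the 7 that were not called.

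**Figure D4:**
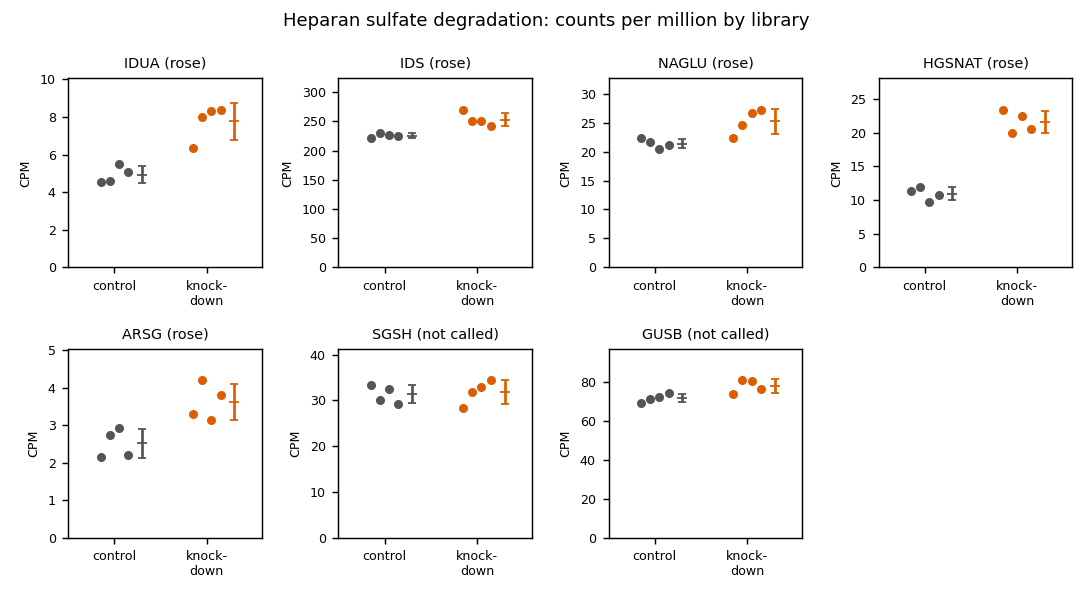
CPM of the 7 heparan sulfate genes in each library (vertical axes, from 0), with controls in grey and knockdown in orange; points are libraries 1 to 4 from left to right and the bar is the mean ± SD. HGSNAT shows the widest gap between the groups, and in SGSH the groups overlap.

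Other glycan enzymes that rose included FUCA1, the lysosomal alpha-fucosidase, from 7.02 ± 0.115 to 9.91 ± 0.61 CPM (log2 change 0.5), and MANBA, the beta-mannosidase, from 13.9 ± 0.836 to 17.6 ± 1.15 CPM (0.34). ARSB, which removes sulfate from dermatan and chondroitin sulfate, rose from 9.76 ± 0.984 to 12.6 ± 1.25 CPM (0.37), and GLB1, the beta-galactosidase, from 51.0 ± 0.934 to 58.2 ± 1.33 CPM (0.19; SD, n = 4 per group). None of these 4 had overlapping groups. GALNS, a galactosamine sulfatase of keratan and chondroitin sulfate, rose by a log2 change of 0.3 with overlapping groups, and its call was lost without control replicate 4 or knockdown replicate 4.

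GAA, the acid alpha-glucosidase that degrades glycogen, fell. It was at 78.5, 80.5, 81.8 and 79 CPM in the controls (replicates 1 to 4) and at 57.8, 68.8, 73.4 and 73.2 CPM with knockdown, again in order of replicate. All knockdown libraries were below all controls, with knockdown replicate 1 the lowest, and edgeR gave a log2 change of -0.23 (SE 0.0605, adjusted p 0.00805), or -0.15 without that library. GAA (identifier 2548) lies on chromosome 17 from 80101581 to 80119881.

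The hyaluronidase HYAL2 (42.9 ± 2.19 to 36.5 ± 4.87 CPM) and the sialidase NEU1 (14.8 ± 0.745 to 12.5 ± 0.988 CPM; SD, n = 4 per group) also fell, by 0.23 and 0.24 on the log2 scale, without overlap. HYAL2 lost its call without control replicate 2, 3 or 4 or knockdown replicate 3, its log2 change was -0.14 without knockdown replicate 1, and 11.2% of its sequence is shared with TUSC2. NEU1 lost its call without control replicate 2 or 3 or knockdown replicate 4. HEXA, an enzyme chain that acts on gangliosides, was at 70.3 ± 1.02 and 71.0 ± 1.92 CPM (SD, n = 4 per group), a log2 change of 0.01. The fucosidase FUCA2 was at 111 ± 0.977 CPM in the controls and 104 ± 2.36 CPM with knockdown (SD, n = 4 per group), lower in every knockdown library, and was not called (log2 change -0.09, edgeR adjusted p 0.0663), while DESeq2 and the fit without knockdown replicate 1 called it.

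Proteases moved little: of 9 genes 1 rose and 0 fell (11.1%, beside 30.7% of all tested genes), and the median log2 change was -0.0013. At an unadjusted p under 0.05 the count was also 1. Without knockdown replicate 1 it was 2, both rises (22.2%, beside 42.7% of all tested genes). The 5 cysteine cathepsins above the minimum, CTSB, CTSC, CTSH, CTSK and CTSV, were all uncalled in edgeR, with log2 changes of -0.08 to 0.09, 0 of them at an unadjusted p under 0.05. CTSH was called without knockdown replicate 1 (0.12, edgeR adjusted p 0.0043). CTSC, which activates granule proteases in immune cells, was the highest protease by count at 250.2 ± 4.85 and 248 ± 12.6 CPM. CTSB was at 105 ± 2.56 and 99.8 ± 4.9 CPM, and the asparaginyl endopeptidase LGMN at 80.2 ± 2.24 and 80.1 ± 1.63 CPM (SD, n = 4 per group). CTSA, the carboxypeptidase that protects NEU1 and GLB1 in a complex, was at 134 ± 2.54 and 135 ± 3.07 CPM, and its log2 change was 0.01; exons of NEURL2 overlap 28.5% of CTSA.

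CTSD, the aspartic protease cathepsin D, was the protease that rose. It was at 159, 161, 159.9 and 153 CPM in the controls and at 158, 200.1, 192 and 204 CPM with knockdown. Knockdown replicate 1 lay within the control range and the other 3 well above it. From edgeR the gene had a log2 change of 0.25 (SE 0.0608, adjusted p 0.00492), and 59.8% of the sequence is shared with AC068580.4, an overlapping gene model. CTSD was also the most abundant protease per length, at 84.4 FPKM over all libraries.

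Several other cathepsins were near the floor. CTSS had 0 to 0.118 CPM over the 8 libraries, CTSZ 0 to 0.129 CPM, CTSW 0 to 0.0634 CPM and CTSL 0 to 0.0323 CPM. Each range starts at 0 counts, and the highest values are near or below the level of 3 counts, so no change could be detected at this depth.

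Lipid enzymes and cofactors had the highest share of rises of any class with at least 8 genes, with 6 of 10 rising and 0 falling in edgeR, also at an unadjusted p under 0.05. One of the 6 is PSAPL1, which passed the minimum through its knockdown libraries, and 5 of 9 rose without it. Rises make 60% of the class, or 55.6% without PSAPL1, beside 15% of all tested genes. The median log2 change was 0.16, and 7 rose without knockdown replicate 1, beside 21.2% of all tested genes. Of the 9 lysosome genes that also carry the term Sphingolipid metabolism, glycosidases and NEU1 included, 5 rose and 1 fell. PSAPL1 is 1 of these 5 as well, so the count shares that limit. Among all tested genes 15% rose and 15.6% fell. Without knockdown replicate 1, 6 of the 9 rose and 1 fell, beside 21.2% and 21.5% of all tested genes.

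PSAP, the precursor of the saposins that present sphingolipids to their hydrolases, was the most abundant lysosome gene per length, at 138 FPKM over all libraries. It was at 343, 344, 356 and 364 CPM in the controls and at 375.0, 422, 422 and 424 CPM with knockdown. Every knockdown library was above the controls, and knockdown replicate 1 lay well below the other 3. From edgeR the gene had a log2 change of 0.22 (SE 0.0404, adjusted p 3.87e-04). PSAP (identifier 5660) lies on chromosome 10 from 71816298 to 71851251.

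PSAPL1, a paralog of PSAP, had the largest log2 change of the 107 genes but a low level. It was at 0.808, 0.663, 0.85 and 1.0 CPM in the controls and at 1.65, 1.93, 1.74 and 2.35 CPM with knockdown, or 21 to 80 counts a library. Every knockdown library was above the highest control, and the level rose 2.3-fold (log2 change 1.2, SE 0.213, edgeR adjusted p 3.19e-04). It passed the minimum through the knockdown libraries, so its rise is given as a description of a gene just inside that minimum.

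LIPA, the acid lipase that frees cholesterol and fatty acids from lipoproteins, was at 56.4 to 59.8 CPM in the controls and 69.3 to 76.8 CPM with knockdown (log2 change 0.32, SE 0.0462, edgeR adjusted p 4.33e-05). Acid sphingomyelinase SMPD1 rose from 20.3 ± 0.809 to 24.5 ± 2.7 CPM (0.27, with overlap) and acid ceramidase ASAH1 from 68.7 ± 0.862 to 77.8 ± 4.04 CPM (0.18, without overlap). PPT1, the palmitoyl-protein thioesterase, rose from 199 ± 5.52 to 216 ± 4.71 CPM (0.12; SD, n = 4 per group) and lost its call without control replicate 3 or 4.

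NPC2 and NPC1 hand cholesterol from the lumen to the membrane, and neither was called. NPC2 was at 119 ± 1.83 and 123 ± 6.04 CPM and NPC1, a membrane protein, at 48.6 ± 1.95 and 47.4 ± 3.9 CPM (SD, n = 4 per group). The ganglioside activator GM2A (log2 change 0.05) and the phospholipase PLA2G15 (0.01) were not called either.

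Of 20 membrane proteins 8 rose and 1 fell (45%, beside 30.7% of all tested genes), with a median log2 change of 0.13. Without knockdown replicate 1, 8 rose and 2 fell (50%, beside 42.7% of all tested genes). HGSNAT, described above, and LAMP3 rose most. LAMP3, known from maturing dendritic cells, was at 1.65, 1.67, 1.09 and 1.34 CPM in the controls and 3.11, 2.47, 2.53 and 3.0 CPM with knockdown. The groups did not overlap, and the level rose 1.93-fold (log2 change 0.95, SE 0.182, edgeR adjusted p 6.48e-04) on 36 to 102 counts a library.

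The other 6 risers of this class had smaller changes. ABCA2, a lipid transporter, rose from 105 ± 6.83 to 135 ± 10.2 CPM (log2 change 0.37), and SLC17A5, which exports sialic acid, from 20.6 ± 1.66 to 26.7 ± 2.77 CPM (0.37). SCARB2, a receptor of the lysosomal membrane, rose from 83.5 ± 1.74 to 104 ± 2.93 CPM (0.32, SE 0.0403, edgeR adjusted p 9.3e-06; SD, n = 4 per group). LITAF, an endosomal membrane protein, rose from 191 ± 3.09 to 226 ± 8.68 CPM (0.24; SD, n = 4 per group). LAPTM4B, the most abundant membrane protein per length at 131 FPKM, rose from 301 ± 10.6 to 340.4 ± 23.9 CPM (0.18) and its relative LAPTM4A from 58.8 ± 4.27 to 69.4 ± 5.84 CPM (0.24; SD, n = 4 per group). Only LAPTM4A among these 6 risers had overlapping groups. The cystine exporter CTNS (log2 change 0.14), MFSD8 (0.1) and the peptide transporter ABCB9 (-0.05) were not called.

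LAMP1, described above, was not called. LAMP2, the partner of LAMP1, was at 148 ± 6.25 CPM in the controls and 147 ± 10.9 CPM with knockdown, a log2 change of -0.0065 that was not called. CD63, a tetraspanin of late endosomes, fell from 159 ± 1.84 to 148 ± 3.91 CPM (SD, n = 4 per group; log2 change -0.1, edgeR adjusted p 0.0392) without overlap. That call was lost without each library in turn except knockdown replicates 1 and 4, with upper quartile normalization, with no filter on low counts and with replicate numbers as a block (adjusted p 0.0171 to 0.0991 over single libraries left out). MCOLN1, the calcium channel of lysosomes, had a log2 change of 0.21 and was not called at 8.01 ± 0.903 and 9.3 ± 0.859 CPM (SD, n = 4 per group).

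Sorting genes had calls in both directions, at shares nearer to those of all tested genes. Of 30 adaptor subunits, receptors, tagging enzymes and clathrin chains 7 rose (23.3%, beside 15%) and 4 fell (13.3%, beside 15.6%), together 36.7% beside 30.7%, and the median log2 change was 0.01. Without knockdown replicate 1, 10 rose and 6 fell (53.3%, beside 42.7% of all tested genes). The sorting genes hold 4 of the 8 falls among all lysosome genes.

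The mannose 6-phosphate route holds calls in both directions. GNPTAB, which encodes the alpha and beta subunits of the phosphotransferase that starts the tag, rose from 82.1 ± 1.77 to 96.4 ± 3.93 CPM (log2 change 0.23, edgeR adjusted p 4.42e-04). NAGPA, the enzyme that uncovers the tag, fell from 11.5 ± 0.613 to 9.4 ± 0.875 CPM (SD, n = 4 per group; log2 change -0.29, edgeR adjusted p 0.0167) and lost its call without control replicate 2. The groups did not overlap in either gene. GNPTG, the gamma subunit, was at 19.7 ± 1.07 and 17.1 ± 2.46 CPM (SD, n = 4 per group) and was not called (log2 change -0.2, edgeR adjusted p 0.0909), and exons of UNKL overlap 30.9% of it.

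IGF2R, the larger of the mannose 6-phosphate receptors and also a receptor that clears the growth factor IGF2, was at 135, 138, 144 and 134 CPM in the controls and at 121, 113, 121 and 117 CPM with knockdown. All knockdown libraries were below all controls, and edgeR gave a log2 change of -0.22 (SE 0.0403, adjusted p 3.47e-04). M6PR, the smaller receptor, was at 294 ± 5.78 and 294 ± 10.1 CPM (SD, n = 4 per group), a log2 change of -0.0013 that was not called. Exons of PHC1 overlap 29.3% of M6PR, so its reads may not be fully assigned. Per length M6PR was also the most abundant sorting gene, at 113 ± 2.23 FPKM in controls, against 9.74 ± 0.333 FPKM for IGF2R (SD, n = 4). IGF2R (identifier 3482) lies on chromosome 6 from 159969082 to 160111504.

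SORT1, sortilin, carries prosaposin, acid sphingomyelinase and other cargo without the tag. It was at 83.9, 79.9, 83.3 and 85 CPM in the controls and at 114, 105, 106 and 109 CPM with knockdown. Every knockdown library was above every control, and edgeR gave a log2 change of 0.39 (SE 0.0421, adjusted p 1.42e-06), the largest among the sorting genes. SORT1 (identifier 6272) lies on chromosome 1 from 109309575 to 109397918. The cargoes named here, PSAP and SMPD1, rose as described above. Other cargoes of SORT1 were not examined as a group, and a link to SORT1 was not tested.

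**Figure D5:**
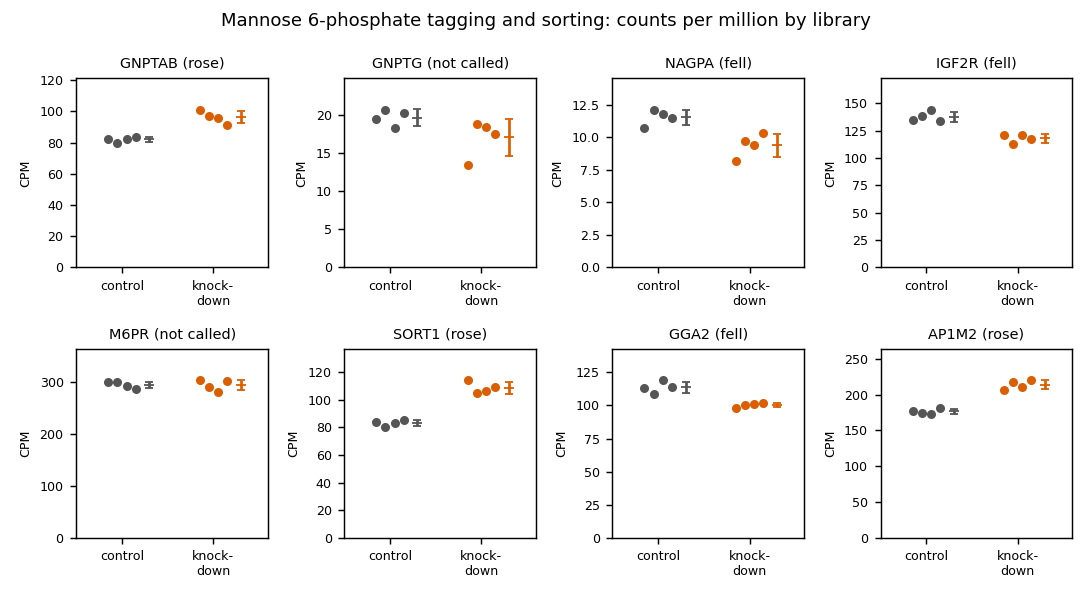
CPM of 8 genes of mannose 6-phosphate tagging and sorting in each library (vertical axes, from 0), controls in grey and knockdown in orange, with the mean ± SD at the side. GNPTAB, SORT1 and AP1M2 are higher in every knockdown library, and NAGPA, IGF2R and GGA2 lower.

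Among the adaptors, which link receptors to coats, AP-1 of the trans-Golgi network held most calls. Of its 8 subunits 4 rose and 1 fell, with and without knockdown replicate 1. The called subunits make 62.5%, beside 30.7% of all tested genes, and beside 42.7% without that library. The medium chains AP1M1 (77.7 ± 1.09 to 95.1 ± 3.28 CPM, log2 change 0.29) and AP1M2, the epithelial form (176 ± 3.22 to 214 ± 6.11 CPM, 0.28), rose with edgeR adjusted p of 3.57e-05 and 1.12e-05. The small chains AP1S3 (40.8 ± 3.08 to 48.3 ± 1.21 CPM, 0.24) and AP1S1 (124 ± 2.35 to 136 ± 3.54 CPM, 0.13; SD, n = 4 per group) rose too, and AP1S1 lost its call without control replicate 4 or knockdown replicate 2. None of these 4 pairs of groups overlapped.

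The large AP-1 chains did not follow. AP1B1 was at 272 ± 3.83 and 272 ± 21.2 CPM and AP1G1, the gamma-1 chain, at 222 ± 1.74 and 221 ± 13.4 CPM, neither of them called. AP1G2, the gamma-2 chain, fell from 127 ± 4.03 to 108 ± 5.51 CPM (SD, n = 4 per group; log2 change -0.23, edgeR adjusted p 5.07e-04) without overlap. Exons of AL135999.1 cover 50.8% of AP1G2, and reads of the pair may not be told apart.

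The other coats held fewer calls. Of 5 AP-3 subunits 1 was called (20%, beside 30.7% of all tested genes). This was AP3D1, which rose by a log2 change of 0.12 with overlapping groups. Its call was lost without each library in turn except control replicate 3 and knockdown replicate 1. Without the latter AP3M1 also fell (-0.09). Of the 4 AP-4 subunits and the 4 clathrin chains 0 were called in edgeR, beside 30.7% of all tested genes. At an unadjusted p under 0.05 the counts were 1 (AP4M1, 0.27, overlapped over 29.7% by exons of TAF6) and 0. Of these 8, 3 were called without knockdown replicate 1, beside 42.7% of all tested genes. AP4M1 (0.3) and the light chain CLTB (0.11) rose and AP4E1 (-0.14) fell. The heavy chain CLTC, at 465 ± 11.1 and 486 ± 29.6 CPM, had a log2 change of 0.06. Among the GGA adaptors, which bind the receptors' tails, GGA2 fell from 114 ± 3.77 to 100.4 ± 1.69 CPM (SD, n = 4 per group; log2 change -0.18, edgeR adjusted p 0.00219) without overlap, while GGA1 (0.08) and GGA3 (0.01) were not called. GGA1 was called without knockdown replicate 1 (0.15, edgeR adjusted p 0.00285).

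The proton pump genes that carry the term are mostly of the membrane-embedded V0 sector. Of 8 genes 2 rose and 0 fell in edgeR, also at an unadjusted p under 0.05, with a median log2 change of 0.03. The share called was 25%, beside 30.7% of all tested genes. Without knockdown replicate 1 the count was the same, beside 42.7% of all tested genes. Both risers are isoforms of the large a subunit, which directs the pump to an organelle. ATP6V0A1 was at 64, 63.3, 63.2 and 60 CPM in the controls and at 77.0, 76.9, 76.4 and 75.6 CPM with knockdown (log2 change 0.29, SE 0.042, edgeR adjusted p 4.71e-05). ATP6V0A2 was at 33.4, 33.6, 33.9 and 33.2 CPM in the controls and at 43.8, 40.6, 40.7 and 41.4 CPM with knockdown (0.31, SE 0.05, edgeR adjusted p 1.22e-04). The gap between groups was wider than the spread within either group in both genes. TCIRG1, the third isoform expressed, was at 42.7 ± 1.59 and 40.6 ± 2.03 CPM (SD, n = 4 per group) and was not called (-0.07). The ring subunits ATP6V0C (0.01, with 84.4% of its sequence shared with AC093525.2) and ATP6V0B (0.06), the most abundant pump genes per length, were not called.

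Of 10 further pump genes outside the term, chiefly of the cytosolic V1 sector, 4 rose and 0 fell in edgeR: ATP6V1E1 (log2 change 0.21), ATP6V1D (0.18), ATP6V0E1 (0.17) and ATP6V1B2 (0.15). The 4 calls make 40%, beside 30.7% of all tested genes. Without knockdown replicate 1, 5 rose and 1 fell (60%, beside 42.7%), and without control replicate 2 the number called was 1.

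The 4 other lumenal proteins included 1 that rose, DNASE2, the acid endonuclease that digests DNA of engulfed cells, from 58.8 ± 1.43 to 68.3 ± 2.57 CPM (log2 change 0.22, edgeR adjusted p 0.00137) without overlap. The acid phosphatase ACP2 was at 32.3 ± 1.32 and 31.4 ± 0.616 CPM and SUMF1, the enzyme that activates sulfatases in the endoplasmic reticulum, at 10.9 ± 0.671 and 10.5 ± 1.24 CPM (SD, n = 4 per group), neither of them called. SUMF1 had a log2 change of -0.06, while 5 of the 7 sulfatases rose.

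Genes just inside the minimum were PSAPL1 and the collagenolytic cathepsin CTSK (1.68 ± 0.19 and 1.71 ± 0.327 CPM; SD, n = 4 per group). Just outside it were CTSO, with a median of 0.701 CPM, AP3B2 (0.624 CPM) and ACP5 (0.505 CPM), the tartrate-resistant acid phosphatase of osteoclasts. Of the 15 genes left below the minimum 4 were still tested: AP3B2 rose from 0.474 to 0.985 CPM on average, ACP5 fell from 0.84 to 0.228 CPM, and CTSO and ATP6V0A4 were not called.

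Related genes outside the term were read from lists by function. TFEB, the best known activator of lysosomal genes, was at 6.45 ± 0.322 and 5.99 ± 0.377 CPM, its relative TFE3 at 72.4 ± 3.41 and 77.3 ± 5.47 CPM and MITF at 19.4 ± 1.82 and 18.6 ± 1.06 CPM (SD, n = 4 per group). None of the 3 was called in the fit of all 8 libraries; they were named after their values were seen. TFE3 was called as higher without knockdown replicate 1 (log2 change 0.14, edgeR adjusted p 0.00228) and with GC-corrected offsets (0.1, adjusted p 0.0435). Of 21 MiT/TFE and mTORC1 genes, which couple lysosomal nutrient sensing to these factors, 2 rose and 2 fell. Together these are 19%, beside 30.7% of all tested genes. LAMTOR2, of the Ragulator scaffold, rose from 30.6 ± 0.913 to 36.9 ± 1.85 CPM (log2 change 0.27) and the arginine sensor SLC38A9 by 0.21. RHEB, the small GTPase that switches mTORC1 on, fell from 96.9 ± 4.49 to 83.0 ± 1.8 CPM (-0.22; SD, n = 4 per group), and its inhibitor TSC1 fell by 0.15 on the log2 scale. SLC38A9 lost its call without control replicate 1, 3 or 4, and TSC1 without control replicate 1, 2 or 3 or knockdown replicate 2 or 4. In this list 10 genes were called without knockdown replicate 1, where 8 rose and 2 fell (47.6%, beside 42.7% of all tested genes). Without control replicate 1 or 3 the number called was 2.

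Of 32 further lysosomal residents 5 rose and 5 fell, shares of 15.6% each beside 15% and 15.6% of all tested genes. SLC36A1, a proton-coupled amino acid exporter, fell from 37.8 ± 0.715 to 26.4 ± 1.34 CPM (log2 change -0.52, edgeR adjusted p 1.03e-06), and CREG1, a secreted glycoprotein of endosomes, from 123 ± 5.08 to 102 ± 4.61 CPM (-0.27; SD, n = 4 per group). PCYOX1 (0.27) and the cobalamin carrier LMBRD1 (0.29) rose. Leaving out knockdown replicate 1 gave 7 rises and 5 falls, and leaving out control replicate 3 or knockdown replicate 3 gave 3 falls. Of 7 cathepsin inhibitors CST6, the cystatin M of squamous epithelium, rose by 0.84 from 1.37 ± 0.187 to 2.45 ± 0.547 CPM, and SERPINB13, an inhibitor of cathepsins K and L, fell from 33.5 ± 0.676 to 21.1 ± 1.53 CPM (-0.67, edgeR adjusted p 1.6e-07; SD, n = 4 per group). The inhibitors called make 28.6%, beside 30.7% of all tested genes, and their counts were the same without knockdown replicate 1.

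Machinery that moves and fuses lysosomes was mostly uncalled. Of 23 tethering and positioning genes 0 rose and 1 fell in edgeR (4.35%, beside 30.7% of all tested genes). In that list 5 genes passed an unadjusted p of 0.05, and DESeq2 called 1 that fell and 0 that rose. The number called was 5 without knockdown replicate 1 (21.7%, beside 42.7% of all tested genes) and 2 without control replicate 3. Of 9 retromer and sorting nexin genes VPS26B rose (0.11) and the sorting receptor SORL1 (-0.22) and SNX2 (-0.14) fell. The 3 calls make 33.3%, beside 30.7% of all tested genes. The calls of VPS26B and SNX2 were lost without most single libraries, and 1 call was left without control replicate 1, 2 or 4 or knockdown replicate 2, 3 or 4. Of 23 autophagy genes GABARAPL1 (0.23) and ATG9A (0.21, with 44.7% of its sequence shared) rose and the receptor OPTN (-0.25) fell. Together these are 13%, beside 30.7% of all tested genes. Without knockdown replicate 1, 4 autophagy genes rose and 4 fell (34.8%, beside 42.7% of all tested genes).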

How the data were processed

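Polyadenylated RNA of KYSE150 cells was sequenced as paired-end reads in 4 control and 4 BOLA3-L knockdown libraries. Per the labels, TRIzol RNA, the VAHTS Universal V6 kit and the build hg38 were used. Aligner, counter, strand setting and gene annotation: not given in the sources used here. Raw counts of each gene, isoforms together, make up the deposited count table, and the authors' second table holds FPKM. Each of the 110558 nonzero FPKM values is its count over the total of its library and over 1 fixed length of the gene, within 1e-06, so they are no independent measurement; they are not TMM-scaled.

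Counts were normalized by TMM, filtered with filterByExpr, and tested in 11841 genes with the robust quasi-likelihood F-test of edgeR, with Benjamini-Hochberg adjustment at 0.05. CPM use TMM-scaled totals. The SE is the absolute log2 change over the square root of F. Precision is limited by 4 libraries a group, and floors cover counting error only. Same-numbered libraries did not pair (correlations of -0.0444 to 0.0876), so no block was used. BOLA3 fell by 1.66 on the log2 scale, with p = 0.0286 by exact permutation (two-sided), the smallest of 70 assignments.

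The genes, classes and lists were chosen with earlier results of these data known. FUCA2, HYAL2 and HYAL3, on no list, were placed with the glycosidases by enzyme family. This departs from the plan, which put unlisted genes with other lumenal proteins or, for membrane proteins, with that class. Of these genes HYAL2 fell, and FUCA2 and HYAL3 were not called. The motif search, the GC medians and the heparan sulfate group were added with the calls known, and no test was made of them. Per class, the rule for named genes takes the 3 largest called rises and falls and the 2 highest genes by FPKM. It adds the 2 smallest p-values each way per outside list, genes around the minimum and calls with a log2 change of at least 0.5. Some genes it takes are not reported here. Many members beyond it are described and were chosen with their values known. Alternatives were RLE and upper quartile scaling, no filter, a minimum of 1 CPM in 4 libraries, a replicate block, each library left out, DESeq2 and GC-corrected offsets. The last without BOLA3-L knockdown replicate 1, the class without the 3 placed genes, counts without PSAPL1 and the choice of promoter window were chosen after seeing the data. Shared sequence means 75-base windows, every 25 bases, found in other GENCODE v29 genes; coordinates and promoters are RefSeq GRCh38.p14 and matched 107 and 81 members. Steps were tested on simulated data. Python 3.11.15 (pandas 2.3.3, numpy 2.4.6, matplotlib 3.10.9) and R 4.3.3 (DESeq2 1.42.0, edgeR 4.0.16, limma 3.58.1) were used.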

Additional observations from a re-analysis of the deposited data

Results flagged for a closer look

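PSAP, the saposin precursor, was at 375.0 CPM in BOLA3-L knockdown replicate 1, against 422 to 424 CPM in the other 3 knockdown libraries. The gap of that library to the nearest other was 0.941 of the range of its group, above Dixon's critical value for 4 samples. It was the 1 such library among 72 groups of 4 from 36 genes. Chance gives about 1 flagged group in every 20, so 1 in 72 is fewer than chance would give.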

How the results depend on the processing

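Against 43 called lysosome genes (35 rose, 8 fell), the count was 36 to 54 with 1 library left out, 43 with RLE or upper quartile scaling, 42 with no filter, 44 with a minimum of 1 CPM, 45 in DESeq2, 52 with GC-corrected offsets and 51 with those offsets and without BOLA3-L knockdown replicate 1. With no CPM minimum it was 45. No called lysosome gene was called in the opposite direction in any of these fits. The replicate numbers did not pair the libraries, and with them as a block 42 were called; CD63 was the call lost. The number that fell ranged from 4 to 12 with 1 library left out, being 4 without control replicate 2, 5 without control replicate 3 and 12 without BOLA3-L knockdown replicate 1. Proteases called went from 1 to 2 with GC offsets and to 3 with GC offsets and without that library (1 to 2 with 1 library left out). V1 sector genes numbered 4, and 1 to 6 with 1 library left out. MiT/TFE and mTORC1 genes went from 4 to 8 with GC offsets and 9 with both changes (2 to 10 with 1 left out), autophagy genes from 3 to 9 and 9 (3 to 8), and tethering genes from 1 to 5 and 6, and to 2 with upper quartile scaling (1 to 5). Retromer genes numbered 3, and 1 to 4 with 1 library left out. The totals called in the other lists stayed within 1.5 times, but their split moved: glycosidases and sulfatases that fell numbered 3, and 1 to 4 with 1 library left out and 5 with GC offsets, and other lysosomal residents that fell 5, and 3 to 5. Without PSAPL1, 42 lysosome genes were called. Rebuilt counts per kilobase were not run, since FPKM equals scaled counts throughout.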
